A study of Homo sapiens with 23 samples.

Results

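The comparison described here is the response of H929 to an IRF4 guide RNA set against the response of OPM2 to the same kind of guide. Both are human multiple myeloma cell lines, malignant plasma cells that grow in culture. The members are the 12 libraries of these lines among the 23 of the series, and the quantity of interest is the log2 fold change of IRF4-guide over EV libraries in H929 minus that in OPM2. The 4 groups are H929 with the Irf4 sgRNA, H929 with EV, OPM2 with the Irf4 sgRNA and OPM2 with EV, with 3 libraries each. Every group, EV included, received doxycycline for 48 hours. Sample names carry 21B for the IRF4 guide, or EV. The target site of the guide, the meaning of EV and whether each line was a pool or a clone are not given in the sources used here. A single IRF4 guide and a single time were used, so effects of that guide on other sites and later effects cannot be told apart from direct ones.

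IRF4 is a transcription factor of activated lymphocytes and plasma cells that binds DNA together with partner factors, and myeloma lines of many genotypes depend on it. H929 and OPM2 both carry the t(4;14) translocation, which places FGFR3, a receptor tyrosine kinase for fibroblast growth factors, and NSD2, a methyltransferase for histone H3 lysine 36, under immunoglobulin heavy chain regulatory elements. They are known to differ elsewhere: OPM2 carries an activating mutation of FGFR3, whereas H929 carries a mutated NRAS gene. The study asked, by its title and design, what IRF4 inactivation does to transcription in myeloma cells, with the pro-apoptotic genes BMF and BCL2L11 in view.

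FGFR3 lay at 133 CPM (reads scaled to a common library size by trimmed mean of M-values, TMM) or more in every H929 library and at 1180 CPM or more in every OPM2 library, against at most 4.61 CPM in the 2 other lines of the series, MM1S and RPMI-8226. Libraries of the 12 held between 8390849 and 27846502 counts, the second replicate of both H929 groups and of OPM2 EV being the shallow ones. It is not stated whether replicates were separate cultures, and p-values then measure only the spread between these libraries, which may be technical. All tests below are edgeR's quasi-likelihood F tests with Benjamini-Hochberg adjustment over 16468 genes, and a gene is called at an adjusted p under 0.05.

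IRF4 itself was lower with its guide in both lines, and the fall was deeper in H929. In H929 the IRF4-guide libraries held 579, 773 and 855 CPM of IRF4, against 2180, 2220 and 2200 CPM in EV libraries. In OPM2 they held 890, 1330 and 897 CPM, against 1570, 2030 and 1320 CPM in EV libraries. The H929 groups were fully apart, whereas the highest OPM2 library with the IRF4 guide lay just above the lowest OPM2 EV library. IRF4 mRNA fell by 1.58 on the log2 scale in H929 (SE 0.18, adjusted p = 7.83e-07) and by 0.66 in OPM2 (SE 0.18, adjusted p = 0.00675), a difference of -0.92 ± 0.26 (SE, adjusted p = 0.0133). The difference lay between -1.11 and -0.71 when single libraries were left out. Since a guide can disable a gene without removing its mRNA, these counts do not measure how much IRF4 protein was left, and the part of the deeper IRF4 fall in any result below was not tested. These are bulk libraries, in which a change in the share of cells with a response cannot be told apart from a change per cell.

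**Figure D1:**
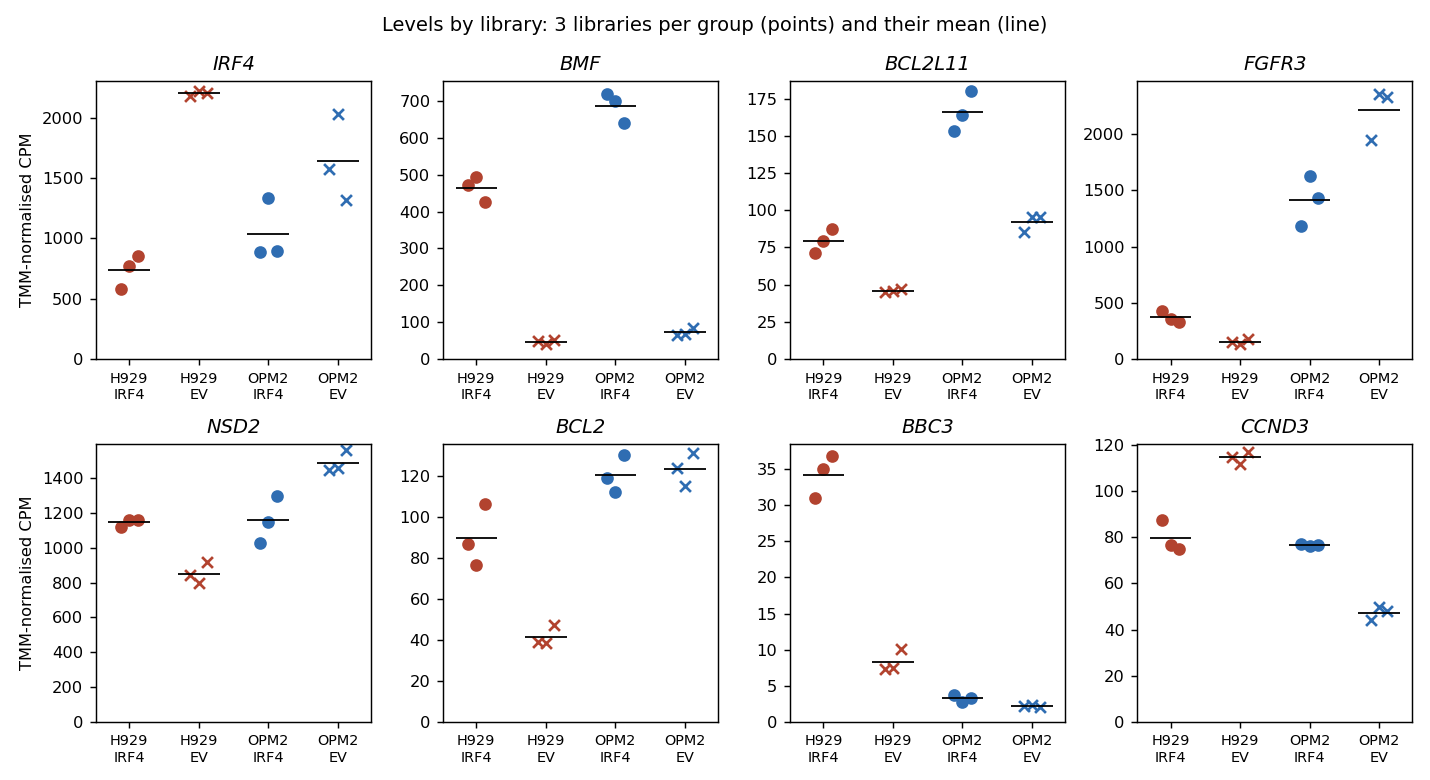
TMM-normalised CPM (y axis, from 0) of 8 genes in each of the 12 libraries, with the groups on the x axis, 3 points a group and a line at their mean. BMF and BCL2L11 stood higher with the IRF4 guide in both lines, FGFR3 and NSD2 were higher in H929 and lower in OPM2, and CCND3 was lower in H929 and higher in OPM2.

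The lines responded in a broadly similar way, with larger changes in H929. Of the genes tested, 9706 were called in H929 (58.9%) and 7156 in OPM2 (43.5%). In H929 5411 genes rose (32.9%) and 4295 fell (26.1%), and in OPM2 3829 rose (23.3%) and 3327 fell (20.2%). The same direction was called in both lines for 5458 genes (33.1%). The difference between the lines was called for 3768 genes (22.9%), of which 1764 were higher in H929 (10.7%) and 2004 lower (12.2%). With library totals alone as the scaling the split was 1483 higher and 2604 lower, and with the 12 libraries fitted alone 1505 higher and 2516 lower. Of the called differences, 1119 were at least 2-fold. The shares of 10.7% higher and 12.2% lower among all genes tested are the ones to set beside each list count below. They include genes scarce or silent in a line, and 11538 of the 16468 reached 1 CPM in a group of each line. Shares among those 11538 were not computed, so a count above 10.7% or 12.2% does not by itself set a list of well expressed genes apart.

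Of the 3768 genes with a called difference, 1701 were called in the same direction in both lines, 1378 in H929 but not OPM2 and 399 in OPM2 but not H929. Among the 1701, the change was larger in H929 for 1488 and larger in OPM2 for 213. The largest class, 868 genes, fell in both lines and further in H929, with a median log2 change of -1.09 in H929 and -0.48 in OPM2. Another 792 genes rose in H929 and were not called in OPM2, and 620 rose in both lines but more in H929 (medians 1.36 and 0.56). A smaller class of 189 genes rose more in OPM2, with medians of 0.91 in H929 and 2.35 in OPM2. Opposite directions, with both lines and the difference called, were found for 262 genes (1.59%, and 394 genes with a replicate block within each line): 151 rose in H929 and fell in OPM2 (0.917%) and 111 did the reverse (0.674%). Across the 11538 genes at 1 CPM or more in a group of each line, the log2 fold changes had Pearson r = 0.75 and Spearman rho = 0.76, a description across genes, which are not independent replicates. The libraries of the IRF4 and EV groups did not overlap for 62.1% of genes in H929 and for 51.9% in OPM2. Over the 11538 genes at 1 CPM or more in a group of each line, the median size of the log2 change was 0.48 in H929 and 0.31 in OPM2.

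**Figure D2:**
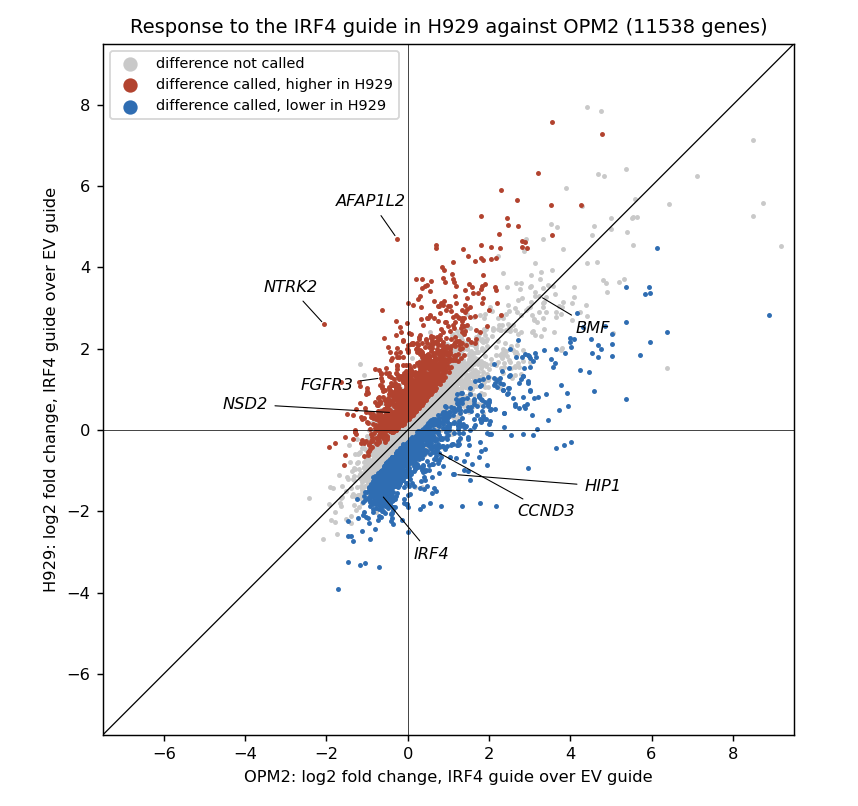
Each point is 1 of 11538 genes, with its log2 fold change of the IRF4 guide over EV in OPM2 on the x axis and in H929 on the y axis; the diagonal marks equal responses and colours mark the called differences. BMF lies on the diagonal, FGFR3 and NSD2 lie at the upper left, and CCND3 and HIP1 lie at the lower right.

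BMF and BCL2L11 (BIM), the BH3-only genes of the study's title, rose in H929 and in OPM2, and the difference was not called for either. BMF, whose protein binds and neutralises pro-survival BCL2 proteins, held 472, 494 and 427 CPM in H929 with the IRF4 guide, against 47.6, 40 and 52.7 CPM in H929 EV. In OPM2 it held 720, 700 and 639 CPM with the IRF4 guide, against 66.2, 66.9 and 83.7 CPM in EV. The groups were far apart in each line, and the log2 fold changes were 3.30 ± 0.14 in H929 and 3.24 ± 0.13 in OPM2 (SE). Their difference was 0.05, with a 95% interval from -0.31 to 0.42. BCL2L11, which encodes the related activator BIM, rose by 0.79 in H929 and by 0.85 in OPM2 on the log2 scale, with a difference of -0.06 (95% interval -0.29 to 0.18).

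Other members of the death machinery did differ. BBC3, another BH3-only gene, held 31, 35 and 36.8 CPM in H929 with the IRF4 guide against 7.26, 7.5 and 10.1 CPM in H929 EV, whereas OPM2 held 3.74, 2.8 and 3.24 CPM against 2.19, 2.37 and 2.03 CPM in OPM2 EV. The groups did not overlap in either line, but the rise of 2.03 in H929 exceeded the change of 0.60 in OPM2 (adjusted p = 0.0669, not called) by 1.42 ± 0.33 (SE, adjusted p = 0.00217). BAX, the pore-forming effector of mitochondrial death, rose in H929 (0.71) and not by call in OPM2 (0.12), a difference of 0.59 ± 0.14 (adjusted p = 0.00135). PMAIP1, the BH3-only gene for NOXA, fell in H929 (-1.06), where it held 1.81 to 2.47 CPM with the IRF4 guide against 4.11 to 5.63 CPM in EV, and its change in OPM2 was -0.08 (difference adjusted p = 0.00233). Among the 10 pro-apoptotic family members tested, these 3 were the ones with a called difference, 2 higher and 1 lower. Of all genes tested 10.7% were higher and 12.2% lower. The effector BAK1 fell in both lines, by 0.50 in H929 and by 0.65 in OPM2, as did BID, which links death receptors to mitochondria.

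On the pro-survival side BCL2, the founding inhibitor of mitochondrial death, separated the lines. It held 86.8, 76.4 and 106 CPM in H929 with the IRF4 guide, against 38.8, 38.4 and 47.2 CPM in EV. In OPM2 it held 119, 112 and 130 CPM with the IRF4 guide, against 124, 115 and 131 CPM in EV. The H929 groups were apart and the OPM2 groups overlapped (difference 1.16 ± 0.14, adjusted p = 5.81e-07). H929 with the IRF4 guide thus came close to the level OPM2 held in either group. MCL1, the survival protein on which myeloma cells lean most, rose in both lines by 0.49 and 0.28, and the difference was not called (95% interval -0.11 to 0.53). BCL2L2, which encodes BCL-W, fell in H929 only by call (-0.60 against 0.00 in OPM2), and its difference missed the threshold (adjusted p = 0.0595) but passed it in 6 of 20 other settings. These were IRF4 replicate 3 of H929 left out (adjusted p = 0.0125), EV replicate 1 of OPM2 left out (0.0209), library totals alone (0.0295), the 12 libraries alone (0.0474), and a replicate block within each line (0.0436) or shared by them (0.0447).

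Of 19 tested genes of caspases and death receptors, 6 had a higher difference and 3 a lower one, beside 10.7% higher and 12.2% lower among all genes tested. CASP1, the inflammasome caspase, rose in both lines but by 4.50 in H929 and 2.82 in OPM2 (difference 1.68 ± 0.27, adjusted p = 2.58e-05). CASP8, the initiator caspase below death receptors, rose by 1.33 and by 0.38 (difference 0.95 ± 0.11, adjusted p = 2.73e-07). CFLAR, its catalytically inactive antagonist, rose by 1.23 in H929 and changed by 0.15 in OPM2, so the initiator and its inhibitor moved together in H929. FAS, the death receptor, rose by 1.07 in H929 against 0.18 in OPM2.

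The oncogenes brought under immunoglobulin control by t(4;14) moved in opposite directions in the 2 lines that carry the translocation. FGFR3 held 431, 354 and 327 CPM in H929 with the IRF4 guide, against 147, 133 and 177 CPM in H929 EV. In OPM2 it held 1180, 1630 and 1430 CPM with the IRF4 guide, against 1950, 2360 and 2330 CPM in EV. The groups did not overlap in either line. FGFR3 thus rose in H929 by 1.28 ± 0.14 and fell in OPM2 by 0.65 ± 0.13 on the log2 scale (SE), a difference of 1.93 ± 0.19 (adjusted p = 1.82e-07). The level remained higher in OPM2, both with the IRF4 guide and in EV.

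NSD2 followed the same pattern at smaller size. It held 1120, 1160 and 1160 CPM in H929 with the IRF4 guide against 841, 796 and 919 CPM in EV, and 1030, 1150 and 1300 CPM in OPM2 with the IRF4 guide against 1450, 1460 and 1560 CPM in EV. Again no groups overlapped, and the log2 fold changes of 0.43 ± 0.08 in H929 and -0.36 ± 0.08 in OPM2 differed by 0.79 ± 0.11 (SE, adjusted p = 1.8e-06). In EV libraries NSD2 was lower in H929 than in OPM2, and with the IRF4 guide the levels of the lines were alike. LETM1, the mitochondrial transporter gene that lies between FGFR3 and NSD2, fell in both lines, by 0.41 in H929 and 0.57 in OPM2, and its difference of 0.16 was not called. The promoters of both oncogenes are shown because both moved apart between the lines together. They are 300-base windows of the RefSeq table (GRCh38.p14, forward strand, from 250 bases before the annotated gene start), FGFR3 at chr4:1793043-1793342 and NSD2 at chr4:1871143-1871442. Neither window held, on either strand, a match to the interferon-response pattern of GAAA and GAAA with 2 free bases between them, to the composite ETS and IRF pattern of GGAA and GAAA with 2 free bases between them, or to the E-box CACGTG, so no base is in capitals.
FGFR3: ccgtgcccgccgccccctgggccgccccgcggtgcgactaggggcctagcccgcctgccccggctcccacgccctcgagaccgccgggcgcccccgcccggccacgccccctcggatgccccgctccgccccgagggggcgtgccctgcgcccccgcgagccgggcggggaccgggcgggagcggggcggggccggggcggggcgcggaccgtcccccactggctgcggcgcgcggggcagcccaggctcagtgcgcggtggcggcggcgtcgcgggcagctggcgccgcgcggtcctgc
NSD2: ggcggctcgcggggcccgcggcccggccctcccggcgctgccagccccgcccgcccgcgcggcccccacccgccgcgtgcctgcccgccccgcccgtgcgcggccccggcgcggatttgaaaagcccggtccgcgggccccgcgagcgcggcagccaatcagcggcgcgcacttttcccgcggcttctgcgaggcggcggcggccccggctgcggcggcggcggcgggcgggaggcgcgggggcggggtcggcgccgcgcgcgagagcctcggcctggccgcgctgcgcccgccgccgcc
In these cells the translocated copies are thought to answer mainly to elements of the immunoglobulin locus, which the windows do not contain, and counts per gene do not tell the translocated from the other allele.

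Of 21 tested genes of the FGF receptor pathway, FGFR3 was the 1 with a higher difference (2 without EV replicate 3 of H929). Another 2 had a lower one, among them FGFR1 (5 lower without IRF4 replicate 3 of H929 and 1 without IRF4 replicate 2 of H929, IRF4 replicate 3 of OPM2 or EV replicate 3 of OPM2). Among all genes tested 10.7% were higher and 12.2% lower, so on so few genes these counts do not set the pathway apart. Among 23 feedback and response genes of the ERK pathway, 3 differences were higher and 3 lower, shares near the 10.7% and 12.2% of all genes tested, and 10 rose and 7 fell in H929 against 9 that rose and 2 that fell in OPM2. DUSP6, the phosphatase that removes activating phosphates from ERK, held 618, 553 and 619 CPM in H929 with the IRF4 guide, against 241, 228 and 264 CPM in EV, and 39.4, 47.4 and 34 CPM in OPM2 against 32.9, 45.5 and 37.3 CPM in EV. It thus stood apart in H929 and overlapped in OPM2 (difference 1.21 ± 0.16, adjusted p = 3.3e-06). EGR1, an immediate early transcription factor, fell by 2.06 in H929, where it held 4.71 to 10.4 CPM with the IRF4 guide against 24.4 to 40 CPM in EV, and was at most 0.334 CPM in any OPM2 library. PHLDA1 rose in both lines and more in OPM2 (2.95) than in H929 (1.16), with a difference of -1.79 ± 0.37 (adjusted p = 0.00197).

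Among other genes that mark myeloma subgroups, CCND3 and CCND2 differed. CCND3, a D-type cyclin, held 87.4, 76.5 and 74.9 CPM in H929 with the IRF4 guide against 115, 112 and 117 CPM in EV, and 77.2, 76.1 and 76.8 CPM in OPM2 with the IRF4 guide against 44.3, 49.8 and 47.9 CPM in EV. It fell in H929 (-0.52) and rose in OPM2 (0.70), and the lines ended at nearly the same level (difference -1.23 ± 0.11, adjusted p = 2.02e-09). CCND2, the D-type cyclin most used by t(4;14) cells, fell in both lines, by 0.31 in H929 and by 0.79 in OPM2 (difference adjusted p = 0.00478).

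The largest coherent difference lay in proliferation genes, which fell further in H929. Of 30 genes of G1/S and DNA replication, all 30 fell in H929 and 23 fell in OPM2, and the difference was called lower for 28 and higher for none. Their median log2 fold change was -1.43 in H929 and -0.49 in OPM2, and the median difference was -0.95, beside -0.01 for all genes tested. CCNE2, the E-type cyclin that drives entry into S phase, held 5.29, 5.67 and 7.3 CPM in H929 with the IRF4 guide, against 38.8, 37.1 and 29 CPM in EV, and 12.7, 14.7 and 8.72 CPM in OPM2 against 13, 14.3 and 9.07 CPM in EV. The H929 groups were widely apart and the OPM2 groups coincided (difference -2.53 ± 0.27, adjusted p = 1.18e-07). E2F8, an S-phase transcription factor, showed the same form, with changes of -1.79 in H929 and -0.10 in OPM2. MCM10 and GINS2, which help assemble and run the replication helicase, fell in both lines, by 2.12 and 1.75 in H929 and by 0.72 and 0.54 in OPM2. UNG and E2F1 were the 2 genes of the list without a called difference.

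Mitotic genes showed the same order. All 29 tested genes of G2/M fell in H929 (median -0.90) and 16 in OPM2 (median -0.25), and 21 had a lower difference with none higher. The OPM2 count is soft, being 9 without EV replicate 1 of OPM2, 7 with library totals alone and 6 on the deposited log2 RPKM values, while the count of lower differences stayed between 20 and 27 under every setting tried. CCNA2, the cyclin of S and G2 phase, fell by 1.40 in H929 and by 0.39 in OPM2. KIF11, the spindle motor, and NUSAP1, a microtubule-binding protein, fell in H929 by 1.15 and 1.02 and were not called in OPM2. MKI67, the marker of cycling cells, held a mean of 338 CPM in H929 with the IRF4 guide against 665 CPM in EV, and 542 CPM in OPM2 against 574 CPM in EV.

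Regulators of the G1 checkpoint moved with them. CDK6, the kinase partner of D-type cyclins, held 426 to 495 CPM in H929 with the IRF4 guide against 921 to 1010 CPM in EV, and 552, 602 and 569 CPM in OPM2 against 690, 749 and 680 CPM in EV. No groups overlapped, and the fall was deeper in H929 (difference -0.77 ± 0.10, adjusted p = 1.63e-06). CDK2 fell by 1.32 in H929 and by 0.35 in OPM2. CDKN1B, the CDK inhibitor p27, rose by 1.10 in H929 and by 0.39 in OPM2 (difference adjusted p = 9.23e-05). CDKN1A, the CDK inhibitor p21, held 408, 330 and 341 CPM in H929 with the IRF4 guide against 141, 147 and 178 CPM in EV, and 36, 32.8 and 26.2 CPM in OPM2 against 19.8, 13.3 and 20.3 CPM in EV. It rose in both lines without overlap, and the difference of 0.42 was not called (95% interval -0.27 to 1.11). Of the 20 genes in this group, 3 had a higher and 9 a lower difference.

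**Figure D3:**
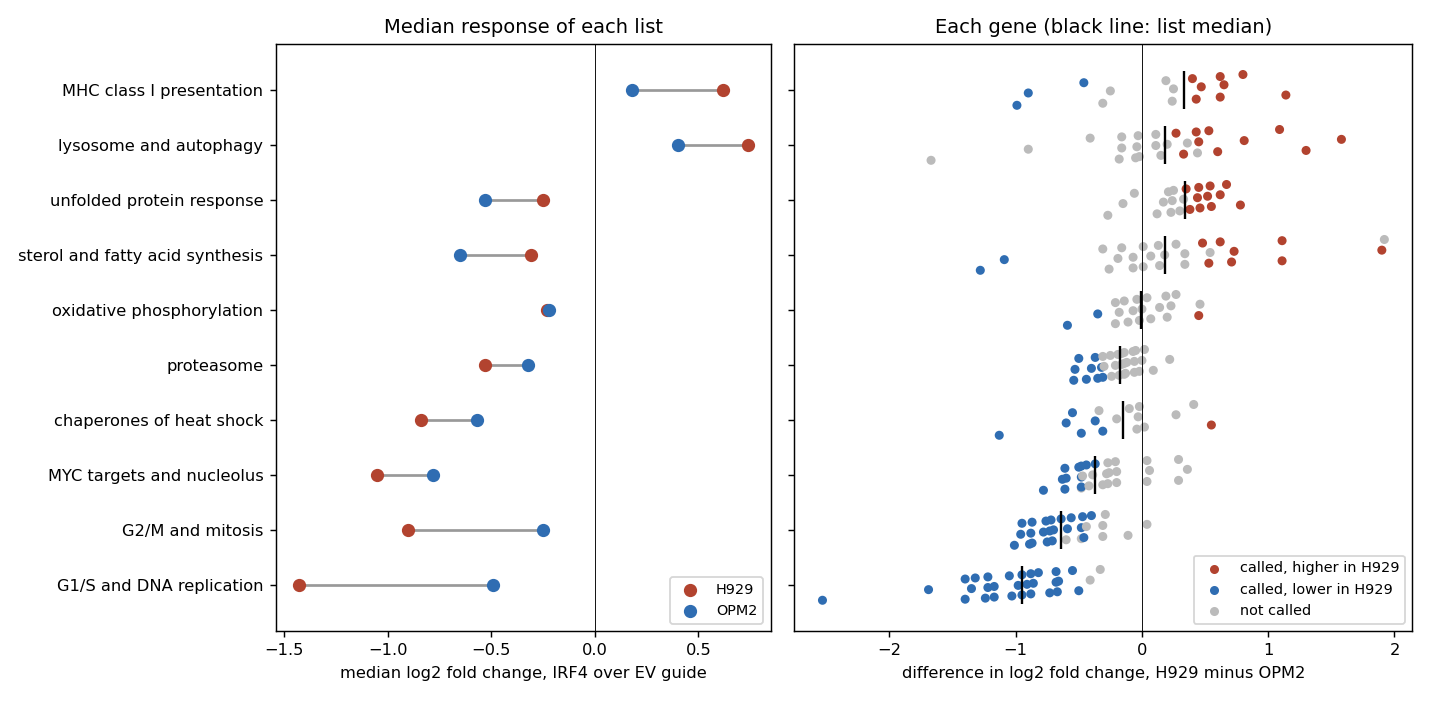
For 10 gene lists (y axis), the left panel gives the median log2 fold change of the IRF4 guide over EV in H929 and in OPM2, and the right panel the difference between the lines for each gene, coloured by its call, with a black line at the list median. G1/S genes lie almost wholly below 0 with a median of -0.95, and genes of the unfolded protein response lie mostly above 0 with a median of 0.34.

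The BBC3 and BAX promoters are shown because these death genes rose more in H929. They are RefSeq windows of the same kind, BBC3 at chr19:47232618-47232917 on the reverse strand and BAX at chr19:48954625-48954924 on the forward strand, with matches in capitals. BBC3 held a CACGTG starting 232 bases before the gene start and 2 overlapping matches to the interferon-response pattern starting at bases 26 and 32 after it. BAX held 4 CACGTG matches, starting 138, 93, 45 and 14 bases before the start.
BBC3: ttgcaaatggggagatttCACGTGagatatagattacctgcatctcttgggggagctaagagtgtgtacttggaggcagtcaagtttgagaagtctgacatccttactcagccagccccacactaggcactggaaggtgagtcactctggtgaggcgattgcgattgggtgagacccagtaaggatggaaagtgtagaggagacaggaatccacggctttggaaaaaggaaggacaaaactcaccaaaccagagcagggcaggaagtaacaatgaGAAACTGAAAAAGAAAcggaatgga
BAX: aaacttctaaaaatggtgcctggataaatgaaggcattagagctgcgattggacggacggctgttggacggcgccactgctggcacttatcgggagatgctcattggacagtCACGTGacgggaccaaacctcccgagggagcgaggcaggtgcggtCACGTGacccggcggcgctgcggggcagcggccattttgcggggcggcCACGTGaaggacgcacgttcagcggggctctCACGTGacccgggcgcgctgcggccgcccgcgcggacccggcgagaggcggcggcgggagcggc
A match to CACGTG was found in 9.68% of the 12560 tested genes with a promoter in the table and a match to the interferon-response pattern in 3.03%.

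MYC fell in both lines, and genes of ribosome production fell somewhat further in H929. MYC held 162, 187 and 187 CPM in H929 with the IRF4 guide against 397, 439 and 427 CPM in EV, and 189, 245 and 273 CPM in OPM2 against 411, 531 and 462 CPM in EV. The log2 fold changes were -1.24 and -0.99, and the difference of -0.25 was not called (adjusted p = 0.219, 95% interval -0.54 to 0.04), but passed the threshold without IRF4 replicate 1 of OPM2 (adjusted p = 0.0249) and with a replicate block within each line (adjusted p = 0.0381). Of 29 MYC targets and nucleolar genes, all 29 fell in H929 (median -1.05) and 27 in OPM2 (median -0.78), and 11 had a lower difference. NPM1, the abundant nucleolar chaperone nucleophosmin, fell by 1.23 in H929 and by 0.45 in OPM2 (difference -0.78 ± 0.13, adjusted p = 3.06e-05). NOLC1 and EIF5A, which serve ribosome assembly and translation, fell by 1.40 and 1.07 in H929 and by 0.78 and 0.47 in OPM2.

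Protein-folding and protein-degrading machines followed the same order. Of 16 chaperones of the heat shock system, 11 fell in H929 and 12 in OPM2, and the difference was lower for 6 and higher for 1. HSPD1, the mitochondrial chaperonin, held 291, 285 and 333 CPM in H929 with the IRF4 guide against 1150, 1130 and 974 CPM in EV, and 528, 638 and 582 CPM in OPM2 against 942, 989 and 923 CPM in EV. Its fall was deeper in H929 by 1.13 ± 0.12 on the log2 scale (adjusted p = 1.68e-08). Of 32 proteasome subunits, 30 fell in H929 (median -0.53) and 27 in OPM2 (median -0.32), with 9 lower differences and none higher; on the deposited log2 RPKM values 17 fell in OPM2. PSMD12, a lid subunit, fell by 1.04 in H929 and by 0.50 in OPM2. Oxidative phosphorylation had 1 higher and 2 lower differences among 20 genes, beside 10.7% and 12.2% of all genes tested. Its medians were -0.23 in H929 and -0.22 in OPM2. The lower count was 4 without EV replicate 3 of H929 and 1 without EV replicate 1 of H929, IRF4 replicate 1 of OPM2 or EV replicate 3 of OPM2.

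Genes tied to IRF4 in myeloma fell in both lines, 14 of 16 in each, with 5 lower differences and 1 higher. MYB, a transcription factor of blood progenitors, held 3.12, 3.14 and 4.64 CPM in H929 with the IRF4 guide against 64.9, 57.4 and 44.3 CPM in EV, and 30.1, 36.3 and 49.7 CPM in OPM2 against 139, 116 and 125 CPM in EV. Both lines lost MYB, and H929 by 2.19 ± 0.33 more on the log2 scale (adjusted p = 6.87e-05). PRDM1, the gene for BLIMP1, which maintains the plasma cell state, was the exception: it held 480, 474 and 531 CPM in H929 against 585, 569 and 620 CPM in EV, and 212, 221 and 251 CPM in OPM2 against 442, 429 and 389 CPM in EV. It fell by 0.26 in H929 and by 0.88 in OPM2 (difference 0.62 ± 0.11, adjusted p = 8.57e-05).

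The secretory programme was the main area in which OPM2 lost more. Of 22 genes of the unfolded protein response, 13 fell in H929 (list median -0.25) and 16 in OPM2 (list median -0.53), and the difference was called higher in H929 for 11 and lower for none. XBP1, the transcription factor that expands the secretory apparatus, averaged 2530 CPM in H929 with the IRF4 guide against 3360 CPM in EV, and 1120 CPM in OPM2 against 2060 CPM in EV. PDIA4, a disulphide isomerase of the endoplasmic reticulum, fell by 0.26 in H929 and by 0.89 in OPM2 (difference 0.62 ± 0.13, adjusted p = 0.00054). EDEM1, which hands misfolded glycoproteins over for degradation, rose in H929 to 778, 844 and 823 CPM, against 482, 489 and 625 CPM in EV, while its OPM2 groups overlapped. The lower count was 1 without IRF4 replicate 1 or 3 or EV replicate 2 or 3 of H929, and the higher count stayed between 8 and 16 under every setting tried.

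Plasma cell identity genes split the same way. Of 19 tested, 11 fell in H929 and 14 in OPM2, with 6 higher and 3 lower differences. SDC1, the plasma cell surface proteoglycan CD138, held 556, 542 and 598 CPM in H929 with the IRF4 guide against 588, 589 and 632 CPM in EV, and 585, 682 and 726 CPM in OPM2 against 1210, 1260 and 1280 CPM in EV. It overlapped in H929 and fell by 0.91 on the log2 scale in OPM2 (difference 0.82 ± 0.10, adjusted p = 5.54e-07). DERL3, a component of the channel for degrading misfolded secretory proteins, went opposite ways, with 273, 265 and 215 CPM in H929 against 129, 126 and 131 CPM in EV, and 3.87, 4.86 and 4.4 CPM in OPM2 against 8.69, 10.1 and 8.02 CPM in EV (difference 1.97 ± 0.19, adjusted p = 1.42e-08). ELL2, an elongation factor needed for immunoglobulin secretion, was among the 3 that fell further in H929, by 0.91 against 0.26 in OPM2. SLAMF7 and TNFRSF17 (BCMA), both targets of myeloma therapy, fell in both lines without a called difference.

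Sterol synthesis also held up better in H929. Of 27 sterol and fatty acid genes, 6 rose and 15 fell in H929, against none that rose and 21 that fell in OPM2, and 8 differences were higher and 2 lower. FDFT1 (squalene synthase) held 84.3, 77.5 and 83.1 CPM in H929 with the IRF4 guide against 58.4, 53.4 and 68.9 CPM in EV, and 168, 195 and 224 CPM in OPM2 against 306, 300 and 331 CPM in EV. It rose in H929 and fell in OPM2 with no overlap (difference 1.11 ± 0.14, adjusted p = 7.36e-07). LSS, the cyclase that makes lanosterol, did the same with log2 fold changes of 0.43 and -0.67, and MVD with 0.44 and -0.29. SREBF2, the master regulator of these genes, rose by 0.50 in H929 and changed by -0.20 in OPM2. FADS1, a fatty acid desaturase, was the main exception and fell by 1.93 in H929 and by 0.65 in OPM2. SLC7A5, the large amino acid transporter, fell in OPM2 (-1.26) and changed by -0.10 in H929 (difference 1.16 ± 0.17, adjusted p = 2.62e-05).

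**Figure D4:**
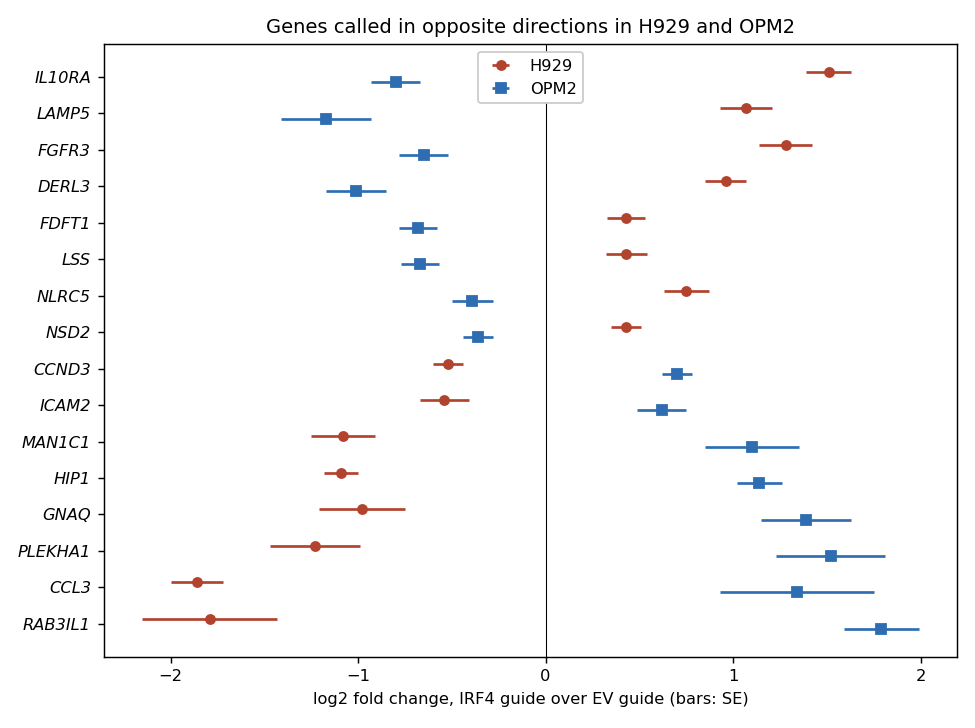
Log2 fold change of the IRF4 guide over EV (x axis) with its SE (bars) in H929 and OPM2 for 16 named genes (y axis) that were called in opposite directions. FGFR3, NSD2, DERL3 and the sterol genes FDFT1 and LSS lie right of 0 in H929 and left of 0 in OPM2, and CCND3 and HIP1 lie the other way.

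Interferon-stimulated genes rose in both lines with similar list medians, while single genes differed. Of 37 tested, 29 rose in H929 (list median 1.97) and 23 in OPM2 (list median 1.88). The difference was higher for 5 and lower for 5 (10 higher on the deposited log2 RPKM values), beside 10.7% and 12.2% of all genes tested. ISG15, a ubiquitin-like modifier, held 58, 59.2 and 36.9 CPM in H929 with the IRF4 guide against 18, 16.1 and 14.8 CPM in EV, and 6.78, 7.15 and 6.56 CPM in OPM2 against 0.706, 0.237 and 0.485 CPM in EV. It rose more in OPM2 on the log2 scale (difference -1.98 ± 0.32, adjusted p = 2.97e-05), though it stayed lower there in level. OAS2, a sensor of double-stranded RNA, rose by 0.41 in H929 and by 2.37 in OPM2. RSAD2, the antiviral enzyme viperin, went the other way: it held 2.8, 4.22 and 1.89 CPM in H929 against at most 0.125 CPM in EV, and was at most 0.594 CPM in any OPM2 library.

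The signalling chain above these genes had 9 higher and 2 lower differences among 21 genes (1 lower without IRF4 replicate 2 of OPM2). JAK1, the kinase shared by interferon receptors, held 318, 356 and 365 CPM in H929 with the IRF4 guide against 106, 112 and 121 CPM in EV, and 169, 176 and 169 CPM in OPM2 against 125, 135 and 120 CPM in EV (difference 1.17 ± 0.10, adjusted p = 1.68e-09). STAT3 rose by 1.36 in H929 and by 0.64 in OPM2. STAT4 was the counterexample, with a rise of 1.10 in H929 and of 3.78 in OPM2, where its EV libraries held 0.52 to 1.23 CPM. Among the other interferon regulatory factors, IRF3 rose in H929 (0.49) and not by call in OPM2 (-0.16), and IRF1 rose by 0.81 in both.

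Antigen presentation genes were looked at by class. For MHC class I, 11 of 16 genes rose in H929 and 7 in OPM2, with 8 higher and 3 lower differences (5 lower without IRF4 replicate 1 of OPM2). HLA-B held 548, 573 and 503 CPM in H929 with the IRF4 guide against 256, 223 and 260 CPM in EV, and 749, 720 and 621 CPM in OPM2 against 625, 565 and 467 CPM in EV. It rose by 1.13 in H929, where the groups were apart, and by 0.33 in OPM2, where they overlapped (difference 0.80 ± 0.13, adjusted p = 2.4e-05), with the reservation that HLA genes share reads with close paralogs. NLRC5, the transactivator of class I genes, rose in H929 (0.75) and fell in OPM2 (-0.39). The class I genes that ran against this were ERAP2, PSMB9 and PSMB8, a trimming peptidase and 2 immunoproteasome subunits, whose differences were -0.99, -0.90 and -0.46. For MHC class II, 3 of 13 genes rose and 1 fell in H929 (list median 0.23), and 5 rose and none fell in OPM2 (list median 1.29). The difference was lower for 3 and higher for none. With the 12 libraries fitted alone, only 7 of the 13 class II genes passed the filter. Of these, 2 rose and 1 fell in H929 and 3 rose in OPM2, again with 3 lower differences. The median difference of the class II list lay between -1.4 and -0.32 across the other settings, so its medians are soft. CIITA, the class II transactivator, fell by 1.56 in H929 and changed by 0.07 in OPM2.

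Lysosome genes rose in both lines and more in H929. Of 26 tested, 19 rose in H929 (list median 0.74) and 18 in OPM2 (list median 0.40), and 10 differences were higher and none lower (1 lower without IRF4 replicate 1, EV replicate 2 or EV replicate 3 of H929). CTSA, the protective protein cathepsin A, held 658, 679 and 660 CPM in H929 with the IRF4 guide against 128, 138 and 140 CPM in EV, and 98.5, 89 and 94.9 CPM in OPM2 against 63.8, 45.1 and 60.3 CPM in EV. Its rise was greater in H929 by 1.58 ± 0.12 (adjusted p = 5.48e-11). ULK1, the kinase that starts autophagy, rose by 1.83 in H929 and by 0.53 in OPM2, and LAMP1, a lysosomal membrane protein, by 1.04 and 0.23.

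Genes of the leukocyte surface and of cell shape divided between the lines. Of 22 adhesion and homing genes 8 differences were higher and 2 lower (4 lower without IRF4 replicate 3 of H929). ITGA4, the alpha chain of the integrin VLA-4, held 2450, 2460 and 2680 CPM in H929 with the IRF4 guide against 840, 778 and 836 CPM in EV, and 323, 358 and 400 CPM in OPM2 against 283, 277 and 310 CPM in EV. It rose more in H929 (difference 1.31 ± 0.14, adjusted p = 5.29e-08), whereas ITGAL, the alpha chain of LFA-1, rose more in OPM2 (2.79 against 1.26 in H929). Genes of the leukocyte actin skeleton had 7 lower and 2 higher differences among 21 (1 higher without IRF4 replicate 1 of H929 or EV replicate 3 of OPM2). LCP1, the actin bundler L-plastin, held 148, 150 and 140 CPM in H929 with the IRF4 guide against 39.2, 35.8 and 41.3 CPM in EV, and 117, 124 and 89.1 CPM in OPM2 against 9.69, 6.52 and 5.64 CPM in EV (difference -1.97 ± 0.18, adjusted p = 5.55e-09).

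Metabolic and chromatin genes gave a few large single differences. SLC16A3, the lactate exporter MCT4, held 107, 91.8 and 117 CPM in H929 with the IRF4 guide against 7.5, 7.13 and 10.4 CPM in EV, and 25.5, 23.4 and 23.8 CPM in OPM2 against 13.6, 12.2 and 12.7 CPM in EV. The groups were apart in both lines and the rise was greater in H929 by 2.73 ± 0.17 (adjusted p = 1.12e-12). The 23 glycolysis genes as a whole had 4 higher and 3 lower differences, beside 10.7% and 12.2% of all genes tested. The lower count was 8 without IRF4 replicate 3 of H929 and 1 without IRF4 replicate 2 of H929. BCL3, a nuclear partner of NF-kB, rose by 2.95 in H929 and by 1.34 in OPM2. Among 22 polycomb and chromatin genes 7 were higher and 4 lower (4 higher on the deposited log2 RPKM values), beside the same shares of all genes. HDAC9 rose by 1.52 in H929 and changed by 0.06 in OPM2.

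Among genes at 1 CPM or more in a group of each line whose library differences did not overlap between the lines, those furthest to the H929 side were AFAP1L2, NTRK2, CD7, CFI and PIK3CD. AFAP1L2, an adaptor of Src signalling, held 9.49, 9.41 and 8.94 CPM in H929 with the IRF4 guide against 0.479, 0.25 and 0.233 CPM in EV, and 48.1, 51.5 and 46.8 CPM in OPM2 against 70.5, 57.5 and 47.2 CPM in EV. It rose by 4.71 in H929 and overlapped in OPM2, where it fell by 0.26 with an adjusted p of 0.049 (difference 4.97 ± 0.27, adjusted p = 5.57e-14). NTRK2, a neurotrophin receptor, rose in H929 by 2.60 and fell in OPM2 by 2.05. PIK3CD, the leukocyte catalytic subunit of phosphoinositide 3-kinase, held 41.8, 42.1 and 45.4 CPM in H929 with the IRF4 guide against 1.76, 2 and 2.1 CPM in EV, and 1.23, 1.31 and 1.12 CPM in OPM2 against 0.52, 1.07 and 0.881 CPM in EV. Its rise was greater in H929 by 3.78 ± 0.43 (adjusted p = 1.01e-07). DDX60L, an antiviral helicase-like gene, rose by 5.27 in H929, where EV libraries held at most 0.279 CPM, and by 1.80 in OPM2.

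The promoters of PIK3CD and DDX60L are shown because they held the interferon-response pattern, in capitals. The RefSeq windows lie at chr1:9651481-9651780 on the forward strand for PIK3CD and at chr4:168480443-168480742 on the reverse strand for DDX60L. The match in PIK3CD starts 87 bases before the gene start, and those in DDX60L start 80 and 50 bases before it.
PIK3CD: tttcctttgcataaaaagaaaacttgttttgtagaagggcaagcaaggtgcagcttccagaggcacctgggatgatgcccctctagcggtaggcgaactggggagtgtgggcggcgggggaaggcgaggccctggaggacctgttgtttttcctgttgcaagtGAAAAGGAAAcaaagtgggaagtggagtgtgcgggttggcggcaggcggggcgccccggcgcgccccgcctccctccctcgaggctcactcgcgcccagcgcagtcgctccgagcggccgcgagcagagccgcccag
DDX60L: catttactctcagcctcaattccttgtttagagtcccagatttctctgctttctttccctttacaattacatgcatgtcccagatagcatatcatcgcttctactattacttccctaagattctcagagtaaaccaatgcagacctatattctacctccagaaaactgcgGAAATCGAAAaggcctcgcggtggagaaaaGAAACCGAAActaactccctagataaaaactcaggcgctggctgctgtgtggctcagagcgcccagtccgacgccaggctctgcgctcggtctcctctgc
Over all genes with a promoter in the table, the interferon-response pattern was found in 4.08% of the 1398 with a higher difference, 2.59% of the 1619 with a lower difference and 3.03% of the 12560 tested. The ETS and IRF pattern was found in 1.65% and 3.34% of the same classes and 2.6% of the tested genes, and CACGTG in 10% and 10.3%, against 9.68%. Among genes that rose in both lines, the ETS and IRF pattern was in 7.48% of the 147 that rose more in OPM2 and in 2.22% of the 495 that rose more in H929. Each of these shares is 11 promoters. The interferon-response pattern was in 4.08% and 4.24% of the same 2 classes. These shares are descriptions of 300-base windows, and a match is not a binding site.

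By the same rule, AREG, ANXA6, SCN4A and WNT4 lay far to the OPM2 side. CST7, which has no bounded place in that order because an EV group was at 0, encodes an inhibitor of lysosomal cysteine proteases in leukocytes and held 4.08, 4.59 and 5.22 CPM in H929 with the IRF4 guide against 0.918, 0.375 and 0.466 CPM in EV. In OPM2 it held 3.34, 3.08 and 3.07 CPM with the IRF4 guide and 0 counts in all EV libraries, at least 61.6-fold higher by a floor of 3 counts over the EV group. AREG, a ligand of the epidermal growth factor receptor, overlapped in H929 and rose in OPM2 to 8.04, 9.53 and 8.39 CPM, against at most 0.371 CPM in EV (difference -4.60 ± 0.75, adjusted p = 3.79e-05). S100A4, a calcium-binding protein of motile cells, rose in both lines, to 386, 288 and 309 CPM in H929 against 78, 47.6 and 55.7 CPM in EV, and to 5.97, 5.47 and 7.56 CPM in OPM2 against at most 0.0881 CPM in EV. The larger fold in OPM2 thus went with a far lower level. IL2RG, the common gamma chain of cytokine receptors, rose by 1.86 in H929 and by 5.72 in OPM2 (difference -3.86 ± 0.68, adjusted p = 0.000378).

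**Figure D5:**
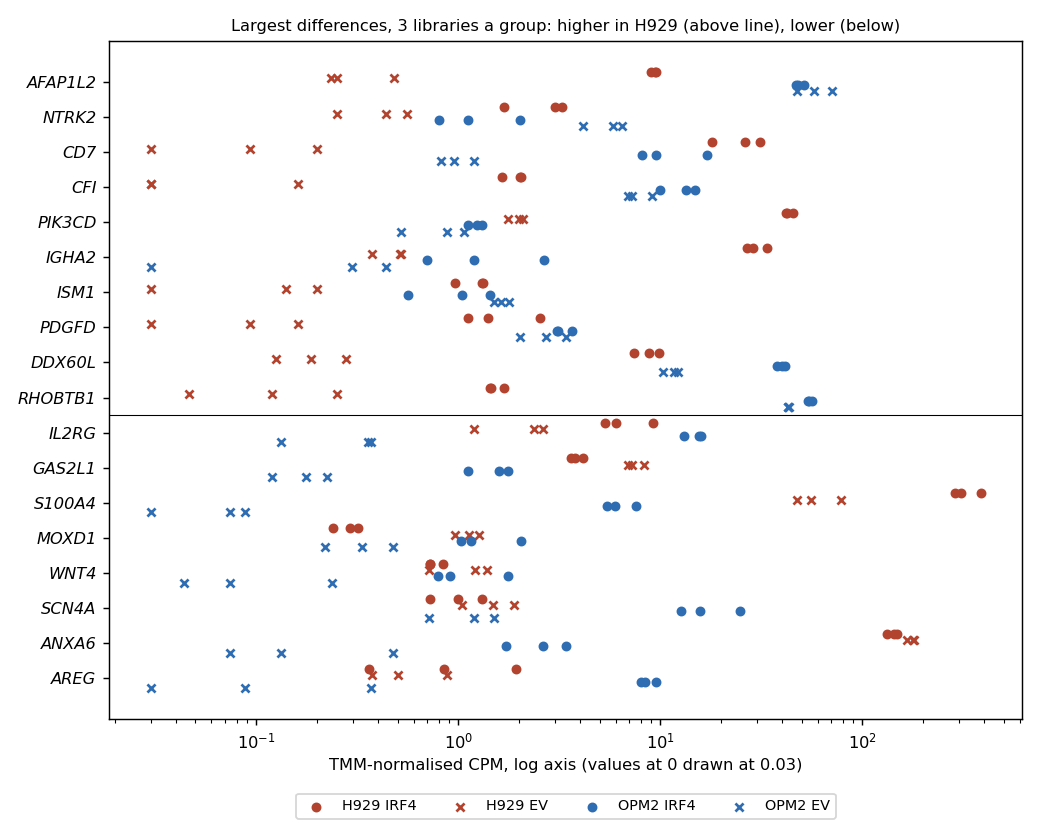
TMM-normalised CPM (log x axis, values at 0 drawn at 0.03) in each library for 18 of the 20 genes named for the size of their difference under that rule (y axis), 10 higher in H929 above the line and 8 lower in H929 below it; CST7 and SLC17A7 are left out. AFAP1L2 lies near 9 CPM in H929 with the IRF4 guide, against under 0.5 CPM in H929 EV, while its OPM2 libraries lie together near 50 CPM.

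Crossing responses were not limited to genes near detection. IL10RA, the interleukin-10 receptor, held 199, 192 and 211 CPM in H929 with the IRF4 guide against 71.5, 71.4 and 69.2 CPM in EV, and 18.6, 27.3 and 21.2 CPM in OPM2 against 39.9, 36.6 and 39.1 CPM in EV. It rose in H929 and fell in OPM2 with no overlap (difference 2.30 ± 0.18, adjusted p = 1.04e-09). LAMP5, a lysosomal protein of dendritic cells and neurons, rose by 1.07 in H929, where every library held 124 CPM or more, and fell by 1.17 in OPM2. In the other direction, HIP1, a clathrin and actin adaptor, held 147, 139 and 161 CPM in H929 with the IRF4 guide against 318, 306 and 332 CPM in EV, and 16, 14.3 and 15.7 CPM in OPM2 against 6.43, 6.52 and 7.71 CPM in EV (difference -2.24 ± 0.15, adjusted p = 5.87e-12). CCL3, the chemokine by which myeloma cells stimulate osteoclasts, fell in H929 to 79.8, 63.5 and 57.9 CPM, against 282, 218 and 234 CPM in EV, and rose in OPM2, where its groups overlapped and no library held more than 1.59 CPM. RAB3IL1, an exchange factor for vesicle GTPases, had log2 fold changes of -1.79 in H929 and 1.79 in OPM2.

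A set of genes moved by amounts that lay within narrow limits of each other in H929 and OPM2. Counting genes called in both lines, with no called difference and a 95% interval of the difference within 0.5 of 0 on the log2 scale, 562 rose and 1007 fell. Besides BMF, the genes of the largest such rises included MAST4 (2.20 in H929 and 2.21 in OPM2), NLRP1 (1.70 and 1.80) and MR1 (1.77 and 1.67), which encode a kinase, an inflammasome sensor and an antigen-presenting molecule. The largest falls included MTUS1 (-1.66 and -1.61), EEF2KMT (-1.44 and -1.39) and ECE2 (-1.20 and -1.35), and PDK1, the pyruvate dehydrogenase kinase (-1.13 and -1.20).

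Some responses could not be compared because the gene had no counts in a line. Of 585 tested genes with 0 counts in all OPM2 libraries, 147 were called in H929, 113 rising and 34 falling, and of 313 with 0 counts in all H929 libraries, 42 were called in OPM2, 38 rising and 4 falling. B4GALNT4, a glycosyltransferase gene, held 24.7, 35.4 and 30 CPM in H929 with the IRF4 guide against 7.46, 12.6 and 8.53 CPM in EV, and SLFN12, a ribonuclease gene of the Schlafen family, held 26.1, 30.9 and 29.9 CPM against 8.66, 10 and 6.9 CPM. PCDH17, a protocadherin, held 6.64, 4.53 and 5.31 CPM in OPM2 with the IRF4 guide against 1.86, 2.25 and 2.25 CPM in EV. No difference between the lines is given for these genes, since the silent line has no fold change.

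Markers of other blood and tissue cells were checked, since their genes moved too. The sums in this paragraph are scaled to library totals alone, without TMM factors, unlike the CPM of single genes. The summed level of 13 T and NK cell markers was 260 to 304 CPM in H929 with the IRF4 guide against 14.8 to 18 CPM in EV, and 21 to 33.7 CPM in OPM2 against 1.05 to 1.4 CPM in EV. Of the 12 tested, 10 rose in H929 and 6 in OPM2, led in H929 by CD3E and GZMB (means of 107 and 97 CPM, against 14.1 and 0.071 CPM in EV), while CD8A averaged 0.0161 CPM in H929 with the IRF4 guide and 0 in the other 3 groups and CD3D was at 0 in both OPM2 groups. CD7, a T cell surface protein among the largest differences above, held 26.2, 18.1 and 31.2 CPM in H929 with the IRF4 guide against at most 0.2 CPM in EV, and 8.14, 9.49 and 17.1 CPM in OPM2 against 0.817, 0.949 and 1.19 CPM in EV. Myeloid markers summed to 53.1 to 56.8 CPM in H929 with the IRF4 guide against 25.6 to 31.7 CPM in EV, and 8.73 to 14.7 CPM in OPM2 against 6.76 to 10.8 CPM in EV. Stromal and epithelial markers summed to 21.6 to 36.1 CPM against 95.5 to 141 CPM in H929, mostly PECAM1, and to 2.94 to 3.77 CPM against 7.71 to 9.01 CPM in OPM2. Erythroid and megakaryocyte markers summed to 204 to 269 CPM against 606 to 811 CPM in H929 and 225 to 284 CPM against 408 to 500 CPM in OPM2, nearly all of it TFRC, the transferrin receptor, which every dividing cell uses. Plasma cell identity genes summed to 10700 CPM or more in every library. Much of that was JCHAIN, which averaged 12700 CPM in H929 with the IRF4 guide and 6360 CPM or more in the other groups (TMM-scaled). The part of other cells in any result was not tested.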

How the data were processed

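RNA sequencing counts of 12 of the 23 libraries, those of H929 and OPM2, were compared within a model of all 23. Per the labels' protocols, total RNA was purified on RNeasy Plus columns and converted to cDNA with a TruSeq RNA kit. The authors deposited a table of raw counts (28395 Entrez genes) and a file of log2 RPKM values for each library. Subread, featureCounts, limma and GRCh38 (hg38) are named, without versions, per the submitters' processing notes. The strand setting of counting is not given in the sources used here, and values of overlapping genes and of close copies such as HLA genes are uncertain.

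From the deposited counts, genes were filtered with filterByExpr by group (16468 left), scaled by TMM factors and fitted with a robust quasi-likelihood model of 8 groups (edgeR 4.0.16, R 4.3.3). Contrasts were the IRF4 guide minus EV in each line and the difference of these, H929 minus OPM2. The SE is the size of the log2 value over the square root of F, and 95% intervals come from the same fit. Lists are described by counts and medians. Bounds against a group at 0 use 3 counts and cover counting error only. The fit was tested on simulated data with known differences. H929 and OPM2 libraries held 8390849 to 27846502 counts.

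Members and the 37 lists (746 of 751 entries matched) were chosen with earlier results of these data known. Named genes were IRF4, BMF, BCL2L11, BBC3, BAX, MYC, CDKN1A, FGFR3, NSD2, PRDM1 and the BCL2 family; the 10 largest called differences each way with 1 CPM in a group of each line and no overlap of the library differences; opposite, alike and line-silent genes by size; and up to 4 members per list by adjusted p of the difference. The list members LETM1, FAS, MKI67, CCND2, XBP1, SLAMF7, TNFRSF17, MVD, IRF1, PSMB8, PSMB9, UNG, E2F1, CD3E, GZMB, CD8A, CD3D and PECAM1 were named after their values were seen. Some genes and a list that these rules name are not reported here. Promoters came from RefSeq tables of GRCh38.p14, in which 138 of 187 named genes matched. Alternatives were the size factors of DESeq2, library totals alone, no filter, the Wald test of DESeq2 1.42.0, the 12 libraries alone, limma 3.58.1 on the deposited log2 RPKM, replicate blocks and each library left out.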

Additional observations from a re-analysis of the deposited data

Results flagged for a closer look

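The difference between the H929 and OPM2 responses was called for 3768 genes by edgeR's quasi-likelihood test. Beyond that count, the named genes below were called in opposite directions in the lines, each with the difference itself called.

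Among those that rose in H929 and fell in OPM2, the difference in log2 fold change was 1.93 for FGFR3 and 0.79 for NSD2. It was 4.97 for AFAP1L2, whose OPM2 groups overlapped, and 4.65 for NTRK2. IL10RA had a difference of 2.3, LAMP5 of 2.24 and the secretory gene DERL3 of 1.97. The difference was 1.14 for NLRC5, 1.11 for FDFT1 and 1.11 for LSS. Less abundant genes were TMPRSS15 (2.81), MEI4 (2.02), SDK1 (1.91) and SLC29A2, a nucleoside transporter (1.88, and 1.07 with an adjusted p of 0.106 on the deposited log2 RPKM values).

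Among those that fell in H929 and rose in OPM2, the difference was -1.23 for CCND3 and -1.16 for ICAM2, an adhesion molecule. HIP1 had a difference of -2.24, MAN1C1, a Golgi mannosidase, of -2.19, and CCL3 of -3.2. Genes at lower levels were MOXD1 (-4.06), GAS2L1 (-3.87), RAB3IL1 (-3.57), PLEKHA1 (-2.76), INKA1 (-2.51) and GNAQ (-2.37). MOXD1 averaged 0.284 CPM with the IRF4 guide against 1.11 CPM in EV in H929, and 1.41 CPM against 0.343 CPM in OPM2. GNAQ, a G protein alpha subunit, averaged 1.63 CPM with the IRF4 guide against 3.1 CPM in EV in H929, and 3.03 CPM against 1.27 CPM in OPM2.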

How the results depend on the processing

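Across 20 other settings, no difference of the 176 named genes changed sign where it was called in the main fit or in that setting. Differences not called could change sign, as that of BMF did (-0.12 to 0.13). Of the 176 genes, 155 kept their call in every setting that gave a value. With a replicate block within each line, 394 genes were called in opposite directions, against 262 without it and 354 with a block shared by the lines; the called differences were 4947 and 4688 under these blocks. Deviations of same-numbered IRF4 and EV libraries correlated by 0.144 to 0.183 in OPM2, above 0.1 for every pair, and by 0.076 to 0.161 in H929. Between the lines they also correlated positively, by 0.049 to 0.116. The OPM2 values lay above these, but this measure does not establish pairing within a line or between the lines. The main fit is unpaired. The block within each line called 8091 genes in OPM2, against 7156 without it, and added calls of the difference for 4 of the named genes, among them MYC and BCL2L2.

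With single libraries left out, called differences numbered 3228 (without H929 EV replicate 1) to 3911 (without H929 EV replicate 3). Genes called in opposite directions numbered 208 to 252, and the IRF4 difference lay between -1.11 and -0.71. Called differences numbered 4087 with the DESeq2 test and 4322 on log2 RPKM. The share of H929 calls that were higher was 55.7%, against 45.6% on log2 RPKM, and that of OPM2 calls 53.5%, against 66.7% with library totals alone. The median log2 change of all genes was 0.10 in H929 and 0.03 in OPM2, against -0.07 and -0.08 on log2 RPKM, so calls near these sizes rest on the scaling. The shallowest of the 12 libraries, with 8390849 counts, limits genes near 1 CPM most.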

Other observations

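Immunoglobulin genes were looked at as a family after their values were seen. The difference between the lines was called for 3 of 13 (JCHAIN, IGHA2 and IGLC3), beside 22.9% of all genes tested. That count does not set the family apart, and several of the 13 were near 0 CPM in a line. JCHAIN, which joins immunoglobulin multimers, averaged 12700 CPM in H929 with the IRF4 guide against 7560 CPM in EV, and 6760 CPM in OPM2 against 6360 CPM in EV (difference 0.66, SE 0.13, adjusted p = 0.000209 by edgeR's quasi-likelihood test). The light chain each line makes fell: IGKC averaged 2670 CPM in H929 with the IRF4 guide against 7070 CPM in EV, and IGLC3 averaged 1820 CPM in OPM2 against 4160 CPM in EV. In the other line each was scarce, with IGLC3 at 2.91 CPM in H929 against 1.59 CPM in EV, and IGKC at 3.43 CPM in OPM2 against 2.85 CPM in EV. The difference was called for IGLC3 (adjusted p = 0.00913) and not for IGKC (adjusted p = 0.258), but each sets a line that makes the chain against one with little of it. Reads of such genes can be shared between near-identical copies. IGHA2 rose in both lines, by 5.90 on the log2 scale in H929 and by 2.29 in OPM2. IGHE averaged 230 CPM in H929 with the IRF4 guide against 11.2 CPM in EV, and its difference was not called (adjusted p = 0.263).

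Of 36 tested genes within 1000000 bases of FGFR3 and NSD2 on chromosome 4, other than these, 5 had a higher and 2 a lower difference, beside 10.7% and 12.2% of all genes tested. None was called in opposite directions, beside 1.59% of all genes, so few would be called at that share. B cell genes held 2 higher and 3 lower differences among 15, also near the shares of all genes, with SPIB, an ETS factor that partners IRF4, rising by 1.74 in H929 and by 3.52 in OPM2. Cytokine receptors held 4 higher and 4 lower differences among 18, with IL21R rising by 0.55 in H929 and by 2.73 in OPM2, and IL4R by 1.66 and 0.68. Among checkpoint kinases, ATM, the kinase that senses DNA breaks, rose by 0.64 in H929 and changed by -0.07 in OPM2, and CHEK1, the replication checkpoint kinase, fell by 1.32 and 0.46.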
